A study of Homo sapiens with 16 samples.

Results

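The p53 pathway, GADD45 and BTG genes examined here were MDM2, GDF15, TP53INP1, BTG1, BTG2, GADD45A, GADD45B and PLK2, and they were chosen by gene symbol, 8 of the 18631 symbols on the array. Every probe with one of these symbols was taken, which gave 9 probes of 24526, with 2 for MDM2. SUM225 cells (SUM-225 in the labels), a breast cancer-derived line with HER2 amplification and over expression, were treated with 1 µM CP724,714, a small molecule inhibitor of the HER2 kinase. Parallel cultures provided RNA at intervals of 3 h from 0 to 45 h, and each RNA went onto 1 Illumina bead array. Each of the 16 groups was therefore a time point with 1 array, and the array at 0 h was the only one without time in the inhibitor. Untreated cultures over the same hours were not analysed here, and so the time spent in culture and any handling at the start of treatment cannot be told apart from the inhibitor. The labels place the cells in Ham's F-12 medium with fetal bovine serum, insulin and hydrocortisone, whereas the study's methods describe a serum-free medium without insulin for this line.

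p53 is a transcription factor that is held at a low level by the ubiquitin ligase MDM2 and that accumulates after DNA damage and other stress. Its target genes arrest the cell cycle, repair DNA or promote cell death, and MDM2 is one of them, which closes a feedback loop. GADD45 proteins are small stress sensors that bind PCNA, the CDK1 and cyclin B1 complex and the kinase MAP3K4. BTG and TOB proteins restrain proliferation and recruit the CCR4-NOT deadenylase, which shortens the poly(A) tails of mRNA. Several of these genes also respond to signals other than p53, among them FOXO factors, NF-kB and growth factor signalling, so that a change in one of them does not by itself report on p53.

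The 250 bases upstream of the transcription start were read for the members held in the RefSeq promoter table (GRCh38.p14), because several courses below moved in the first hours. GADD45A and TP53INP1 had no entry. The windows of PLK2, BTG1, GADD45B and GDF15 are printed 5′ to 3′ on the strand of the gene, since these are the members with a single start in the table and a match to a searched motif. Capitals mark the p53 half-site consensus in PLK2, the FOXO motif GTAAACA (read on the other strand) in BTG1 and GDF15, and the NF-kB consensus in GADD45B and GDF15.

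PLK2 (chr5:58460087-58460336, minus strand): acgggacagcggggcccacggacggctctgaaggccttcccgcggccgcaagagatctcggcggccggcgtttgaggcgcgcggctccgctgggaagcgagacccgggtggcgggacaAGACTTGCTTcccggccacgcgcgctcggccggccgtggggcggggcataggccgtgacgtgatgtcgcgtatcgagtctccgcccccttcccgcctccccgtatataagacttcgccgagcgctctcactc
BTG1 (chr12:92145847-92146096, minus strand): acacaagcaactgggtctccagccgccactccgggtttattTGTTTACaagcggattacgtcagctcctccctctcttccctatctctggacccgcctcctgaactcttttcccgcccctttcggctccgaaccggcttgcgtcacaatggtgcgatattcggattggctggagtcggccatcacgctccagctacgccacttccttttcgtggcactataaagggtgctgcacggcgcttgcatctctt
GADD45B (chr19:2475877-2476126, plus strand): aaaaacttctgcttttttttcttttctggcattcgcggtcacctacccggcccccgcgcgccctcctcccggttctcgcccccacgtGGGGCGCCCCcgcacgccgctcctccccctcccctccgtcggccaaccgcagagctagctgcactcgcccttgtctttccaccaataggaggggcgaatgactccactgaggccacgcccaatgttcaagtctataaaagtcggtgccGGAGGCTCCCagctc
GDF15 (chr19:18385908-18386157, plus strand): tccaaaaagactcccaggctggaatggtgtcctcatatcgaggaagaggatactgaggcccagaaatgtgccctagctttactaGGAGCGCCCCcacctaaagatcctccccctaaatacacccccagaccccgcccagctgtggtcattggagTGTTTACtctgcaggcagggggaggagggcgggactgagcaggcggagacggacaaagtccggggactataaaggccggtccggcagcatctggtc

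Both strands were searched, and matches of the same motif that lie over each other were counted once. The match in PLK2 lay at -132 to -123 from the start, that in BTG1 at -209 to -203, those in GADD45B at -163 to -154 and -15 to -6, and those in GDF15 at -166 to -157 (NF-kB) and -96 to -90 (FOXO). Of 35116 windows of the same length in the table, 5.57% held the p53 half-site consensus, 2.98% GTAAACA and 9.96% the NF-kB consensus. The AP-1 motif TGANTCA, found in 6.57% of windows, was present upstream of 2 of the 4 starts of MDM2. The windows of these 2 starts overlap, and the match is the same site in both. The CRE motif TGACGTCA and the motif TGATGNAA, in 1.65% and 3.14% of windows, matched no member's window. BTG2 held none of the motifs searched. These matches describe letters in a window and not binding. Sites that depart from a searched motif were not counted, so a window without a match may still hold one.

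Signals are given as log2 of the background-corrected and quantile normalized intensity, a scale on which a difference of 1 is a 2-fold change within 1 probe and on which levels of different probes are not comparable. A probe was called detected on an array when its detection p-value, its rank among negative control probes, was under 0.05. Probes detected on at least 3 arrays were tested, which kept 16110 probes of 13108 genes and 7 of the 9 member probes, 1 for each gene other than MDM2. A cubic course in hours was fitted to each probe with limma. The linear change is its straight-line component over 45 h in log2 units, and it is given with its standard error (SE). The residual SD around the course, with a median of 0.19 over all tested probes, was the only measure of error. Adjusted p-values were taken over the 16110 probes, or over the 24526 on the array where no filter was used.

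The arrays had median intensities of 242 to 384 and 14110 to 15073 detected probes. The 7 epithelial and HER2 markers examined, among them ERBB2 and KRT19, were detected on 16 of 16 arrays, and 2 of them fell, KRT8 by 0.68 on the log2 scale and KRT18 by 0.74. Of 5 fibroblast markers, COL3A1, DCN and LUM were detected on 0 arrays and COL1A1 and COL1A2 on 5 each. Of 4 leukocyte markers, PTPRC was detected on 0 arrays, CD3E on 1, CD79A on 11 and CD14 on 16. Of 3 endothelial markers, CDH5 was detected on 1 array, PECAM1 on 16 and VWF on 13, and VWF rose by 2.51 ± 0.28 (limma, adjusted p = 4.03e-07). CD14 rose by 0.34 ± 0.14 (limma, adjusted p = 0.0499). The part of these markers in the results was not tested. In earlier results of these data the arrays fell into sets of 4 consecutive time points (0 to 9, 12 to 21, 24 to 33 and 36 to 45 h), and the labels name no batch. Changes within these sets are therefore given beside those over the whole course.

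TP53INP1 and BTG1 rose, with their widest step in the first 3 h and smaller ones later. GADD45B rose and GDF15 fell over the 45 h, each with some intervals in the opposite direction. PLK2 had its highest value before the inhibitor. No linear trend passed for GADD45A, BTG2 or PLK2, and MDM2 was at background. Of the 7 tested members, 5 depended on time in the F-test of the cubic course, against 51.3% of all tested probes. A linear rise was found for 3 members (26% of all tested probes) and a fall for 1 (21.7%). These counts were read against a background that was itself high, and no test set them apart from it. In RNA of whole cultures, fewer cells that express a gene and less RNA of it per cell cannot be told apart.

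**Figure D1:**
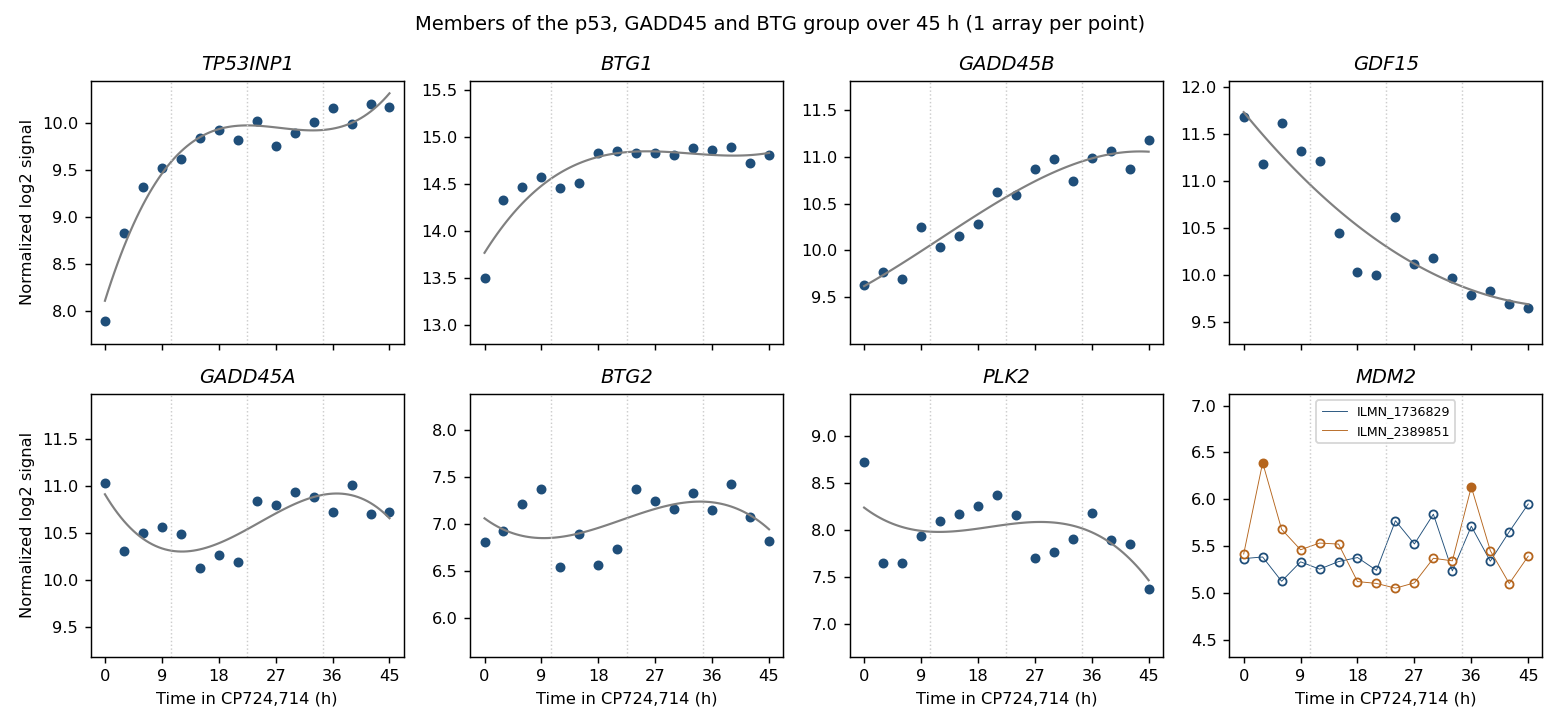
Normalized log2 signal of each member (y axis, the same span of 2.8 log2 units in every panel) against hours in CP724,714 (x axis). Each point is 1 array, filled points are detected and open points are not, grey lines are the fitted cubic courses, dotted vertical lines separate the sets of 4 consecutive arrays, and both MDM2 probes are drawn without a fit. The fitted courses of TP53INP1 and BTG1 are steepest at the start, that of GADD45B climbs and that of GDF15 declines while single arrays step back, such as GDF15 at 24 h, and the MDM2 points are open on all but 2 arrays of 1 probe.

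TP53INP1 (probe ILMN_2214197) encodes a stress-induced nuclear protein that promotes the phosphorylation of p53 and takes part in autophagy. Its log2 value was 7.89, 8.83, 9.33 and 9.53 at 0, 3, 6 and 9 h. It was 9.63, 9.85, 9.93 and 9.82 from 12 to 21 h, 10.03, 9.76, 9.90 and 10.02 from 24 to 33 h, and 10.16, 9.99, 10.21 and 10.18 from 36 to 45 h. The lowest value was at 0 h and each of the later arrays lay above it. At 3 h the signal was 1.92-fold that at 0 h, and at 45 h it was 4.88-fold. Of the log2 difference between 0 and 45 h, 41.1% had been reached at 3 h and 71.7% at 9 h. The linear change was 1.50 ± 0.13 (limma, adjusted p = 1.26e-08), with a curved course (departure from a straight line, adjusted p = 0.000134). Within the 4 sets the last array minus the first gave 1.64, 0.20, -0.01 and 0.02, which leaves out the steps between sets.

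BTG1 (ILMN_1775743), an antiproliferative protein that is abundant in resting cells, had the same shape. Its log2 value was 13.50, 14.34, 14.47 and 14.58 at 0, 3, 6 and 9 h. It was then 14.46, 14.52, 14.83 and 14.85 from 12 to 21 h, 14.83, 14.84, 14.81 and 14.88 from 24 to 33 h, and 14.86, 14.90, 14.72 and 14.81 from 36 to 45 h. From 18 h on the values stayed within a narrow band. The signal was 1.78-fold higher at 3 h than at 0 h and 2.48-fold higher at 45 h, and 63.6% of the log2 difference was present by 3 h and 82.2% by 9 h. The linear change was 0.80 ± 0.11 (limma, adjusted p = 4.76e-06), with a departure from a straight line (adjusted p = 0.00179). Without the 0 h array the linear change was 0.49, still past the threshold. From the first set to the last, the last array minus the first gave 1.08, 0.39, 0.05 and -0.05.

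The first interval was examined with a term for the 0 h array, the difference between the value at 0 h and the cubic through 3 to 45 h read back to 0 h. BTG1 was the member with such a term, at -0.76 ± 0.14 log2 units (limma, adjusted p = 0.0121). A negative term was found for 0.267% of tested probes and a positive one for 0.49%. The call was lost under cyclic loess normalization (-0.73, adjusted p = 0.0545). For TP53INP1, whose rise went on over several arrays, the term was -0.62 ± 0.22 and did not pass (adjusted p = 0.223). Between 0 and 3 h without a test, 2 members rose by 1.7-fold or more, TP53INP1 and BTG1, as did 1.82% of tested probes, and 1 member was lower by as much, PLK2, as were 2.43%.

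**Figure D2:**
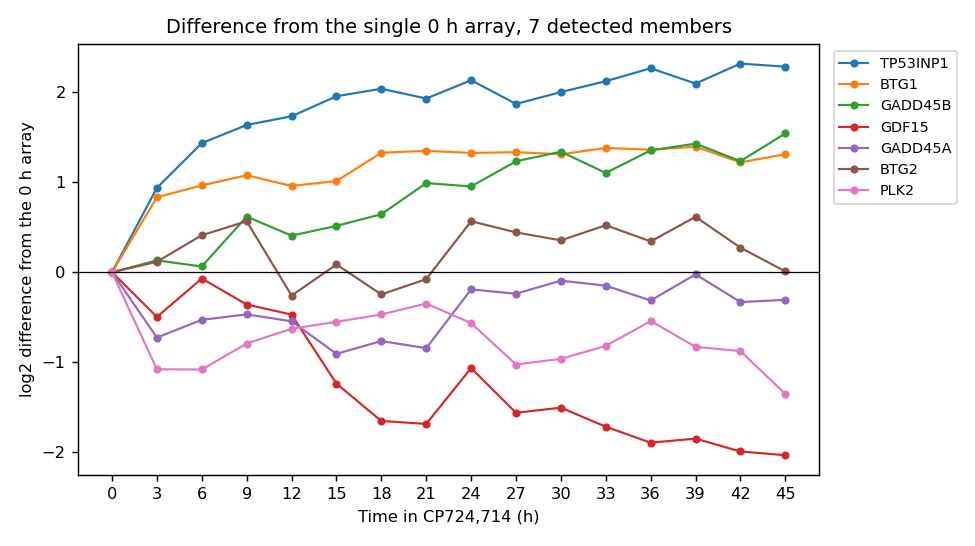
Difference in log2 signal from the single 0 h array (y axis) against hours in CP724,714 (x axis) for the 7 detected members, 1 array per point and no error bars since no time point was repeated. At 3 h TP53INP1 and BTG1 lie 0.94 and 0.83 above zero and PLK2 lies 1.08 below it, and at 45 h the members span from -2.03 for GDF15 to 2.29 for TP53INP1.

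PLK2 (ILMN_1717706), a Polo-like kinase that is induced by growth factors and by p53 and acts in centriole duplication, went the other way. The values were 8.72 at 0 h and 7.64, 7.64 and 7.93 at 3, 6 and 9 h. It was 8.09, 8.17, 8.25 and 8.38 from 12 to 21 h, 8.16, 7.70, 7.76 and 7.90 from 24 to 33 h, and 8.18, 7.89, 7.85 and 7.37 from 36 to 45 h. No later array reached the value at 0 h. The signal at 3 h was 2.11-fold lower than at 0 h, a larger absolute change than that of all but 1.24% of tested probes, and the signal was then higher on each array than on the one before from 9 to 21 h. The linear change of -0.40 ± 0.23 did not pass the threshold (limma, adjusted p = 0.164), nor did the course as a whole (adjusted p = 0.196). The 0 h term was 1.38 ± 0.35 (limma, adjusted p = 0.0774). It passed with median scaling (adjusted p = 0.0497), with array weights (adjusted p = 0.0217) and without the 45 h array (1.56, adjusted p = 0.0336), and without the 3 h array the linear change of -0.57 passed (adjusted p = 0.0468).

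GADD45B (ILMN_1718977) encodes the GADD45 protein best known as a target of NF-kB and TGF-beta signalling. Its log2 value was 9.63, 9.77, 9.70 and 10.25 at 0 to 9 h and 10.04, 10.15, 10.28 and 10.63 at 12 to 21 h. It was 10.59, 10.87, 10.97 and 10.74 at 24 to 33 h and 10.99, 11.06, 10.87 and 11.18 at 36 to 45 h. The lowest value was the first and the highest was the last. The signal at 45 h was 2.92-fold that at 0 h, and only 8.54% of the log2 difference was present at 3 h. The linear change was 1.54 ± 0.12 (limma, adjusted p = 5.16e-09), and no departure from a straight line passed the threshold (adjusted p = 0.231). In each set the last array exceeded the first, by 0.62, 0.58, 0.15 and 0.19.

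GDF15 (ILMN_2188862), a secreted member of the TGF-beta family that rises in many forms of cell stress and is a p53 target, was the 1 member that fell. On the log2 scale it stood at 11.68, 11.19, 11.61 and 11.33 at 0 to 9 h and 11.21, 10.45, 10.03 and 9.998 at 12 to 21 h. It was 10.62, 10.12, 10.18 and 9.97 at 24 to 33 h and 9.79, 9.83, 9.69 and 9.65 at 36 to 45 h. The first 5 arrays were all above the later ones, and the last was the lowest. The signal at 45 h was 4.10-fold lower than at 0 h. The linear change was -2.04 ± 0.20 (limma, adjusted p = 1.09e-07), without a departure from a straight line that passed (adjusted p = 0.255). The last array was below the first in each set, by -0.36, -1.22, -0.65 and -0.14, and the widest single interval was 12 to 15 h (-0.77).

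GADD45A (ILMN_2052208), the p53 and stress target after which the family is named, was lower from 3 to 21 h than at 0 h and higher again from 24 h. Its log2 value was 11.03, 10.30, 10.50 and 10.56 at 0 to 9 h, 10.49, 10.12, 10.27 and 10.19 at 12 to 21 h, 10.84, 10.79, 10.94 and 10.88 at 24 to 33 h, and 10.72, 11.01, 10.70 and 10.72 at 36 to 45 h. The highest value was at 0 h and the lowest at 15 h. The course depended on time (limma, adjusted p = 0.00517) and departed from a straight line (adjusted p = 0.0212), as did 3 of the 7 tested members and 19.3% of all tested probes. The signal at 3 h was 1.65-fold lower than at 0 h. The linear change of 0.37 ± 0.15 missed the threshold (adjusted p = 0.0547), was 0.62 without the 0 h array (adjusted p = 0.00485), and turned to -0.74 with the sets as a factor. It also passed with array weights (0.48, limma, adjusted p = 0.0121) and without the 9 h or the 21 h array (adjusted p = 0.0488 and 0.05 after rounding).

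BTG2 (ILMN_1770085), a p53-inducible relative of BTG1, had its lowest mean on the arrays from 12 to 21 h. Log2 values were 6.81, 6.93, 7.22 and 7.38 at 0 to 9 h, 6.55, 6.90, 6.56 and 6.73 at 12 to 21 h, 7.38, 7.25, 7.16 and 7.33 at 24 to 33 h, and 7.15, 7.43, 7.08 and 6.82 at 36 to 45 h. The end differed from the start by 0.01. Neither the course (limma, adjusted p = 0.383) nor the linear change of 0.26 ± 0.22 (adjusted p = 0.353) passed. The steps of BTG2 coincided with the borders of the sets, -0.83 from 9 to 12 h and 0.64 from 21 to 24 h. GADD45A and GDF15 also stepped up from 21 to 24 h, by 0.65 and 0.62. Whether an array set took part in these steps was not tested, because set and time cannot be told apart there.

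MDM2, the ubiquitin ligase of p53, was not measured above background. The intensity of probe ILMN_1736829 was between 166 and 252 and it was detected on 0 of 16 arrays, where the lowest detected intensity was 210 to 287 depending on the array. Probe ILMN_2389851 gave 166 to 227 and was detected on 2 arrays, at 3 h (222, against a lowest detected intensity of 211 on that array) and at 36 h (227, against 221). Both probes were below the filter, and no fold change is given for MDM2. Without the filter, the linear change was 0.47 ± 0.17 for the first probe (limma, adjusted p = 0.0445), which no array detected, and -0.35 ± 0.25 for the second (adjusted p = 0.351).

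**Figure D3:**
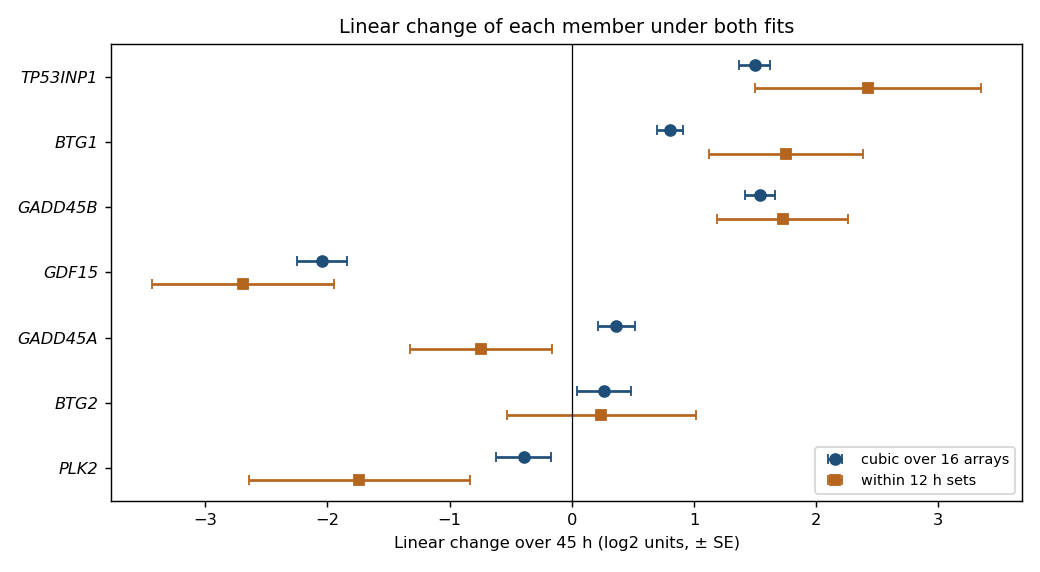
Linear change over 45 h in log2 units (x axis) of the 7 tested members, from the cubic course over 16 arrays (circles) and from a straight line with the set of 4 consecutive arrays as a factor (squares), with bars of 1 SE. TP53INP1, BTG1, GADD45B and GDF15 keep their sides of zero in both fits, the bars of the second fit are wider, and GADD45A moves from 0.37 to -0.74.

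With the set as a factor, a slope common to the 4 sets was fitted and scaled to 45 h. It was 2.42 ± 0.93 for TP53INP1, 1.75 ± 0.63 for BTG1, 1.72 ± 0.54 for GADD45B and -2.69 ± 0.75 for GDF15. These are not changes reached within a set, where the differences given above were smaller. The 4 estimates had the direction of the whole course, and 0 passed the adjusted threshold (limma, adjusted p = 0.221, 0.193, 0.131 and 0.0943), while all 4 had an unadjusted p under 0.05. Each set spans 9 h, which makes these errors larger. Of all 16110 tested probes, 145 had a linear call with the set as a factor, against 7685 with the cubic course. For TP53INP1 and BTG1 the change within a set was widest from 0 to 9 h and small in the sets from 24 h on. Over the 16 arrays, Pearson r between TP53INP1 and BTG1 was 0.94 and between GDF15 and GADD45B -0.89. It was 0.40 between GADD45A and GADD45B and 0.31 between BTG1 and BTG2, so neither of these pairs closely shared a course. These correlations describe points that share arrays and a time order.

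The genes most like each member over the 16 arrays, by the r of their brightest probes, were also listed. For TP53INP1 they were CYP1A1 (r = 0.98), RB1CC1 (0.97) and ELF3 (0.97), and for BTG1 they were MGC17330 (0.95), BCL6 (0.94) and CDKN2C (0.94). GADD45B was nearest to LMBRD1 (0.99), SDCBP2 (0.98) and BEXL1 (0.98), and GDF15 to MRPL11, SPC25 (both 0.96) and RPUSD3 (0.95). The remaining members had looser neighbours. They were KCTD5 (0.89), GNB1L and ANKRD1 (both 0.88) for GADD45A, CDA (0.88), CORO7 (0.87) and FBXO2 (0.86) for BTG2, and PHLDA1 (0.84), TRIB1 and MPP3 (both 0.83) for PLK2.

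The rest of the pathway was described from lists of genes, each by its brightest tested probe. Over all 13108 tested genes 27% rose and 22% fell in the linear change, with a median of 0.06. Of 17 tested p53 regulators, 8 rose and 2 fell, with a median of 0.29. CHEK1, the checkpoint kinase that acts downstream of ATR, fell by 2.81 on the log2 scale (SE 0.20). CHEK2, the checkpoint kinase that acts downstream of ATM, fell by 1.36 on the log2 scale (SE 0.14, limma, adjusted p = 1.56e-07), from 10.10 at 0 h to 9.03 at 45 h. MDM4, the MDM2 relative that binds and inhibits p53, rose by 0.78 ± 0.26 (limma, adjusted p = 0.0173), but it was detected on 11 arrays and did not pass once the 3 h array was left out (adjusted p = 0.073). HIPK2, a kinase that phosphorylates p53, rose by 0.71 ± 0.16. When the fit allowed a jump from 21 to 24 h (the step), neither passed (MDM4 1.008, limma, adjusted p = 0.321, and HIPK2 1.03, adjusted p = 0.0758). TP73 and TP73L (TP63), the relatives of p53, were detected on 0 arrays.

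Of 32 tested p53 target genes other than the members, 11 rose, 3 fell and 18 did not pass, with a median of 0.05. CDKN1A, the CDK inhibitor p21, was detected on every array at its brightest probe, whereas a second probe was detected on 0 arrays. The brightest probe had values of 12.61 and 11.84 at 0 and 3 h. Those at 21 and 24 h were 11.29 and 12.49, and it ended at 11.91. Its linear change was -0.16 ± 0.22 (limma, adjusted p = 0.582) and 0.12 without the 0 h array. With the step it was -1.999, past the threshold (adjusted p = 0.000446), so the call for CDKN1A depends on the step. The largest rises over the 16 arrays were those of CYFIP2, a regulator of actin assembly, at 2.09 ± 0.22 (3.04 ± 0.33 at a second probe), and TRIM22, an antiviral ubiquitin ligase, at 1.58 ± 0.22. With the step, CYFIP2 was 0.60 and no longer passed (limma, adjusted p = 0.347) and TRIM22 was 3.22 (adjusted p = 1.33e-05), which turns their order. The DNA repair genes XPC (0.90) and DDB2 (0.84) and the desmosome-associated PERP (1.28) also rose, and were picked after their values were seen. Only 2 of the 32 target genes rose with the step, TRIM22 among them, so most of XPC, DDB2 and PERP did not keep their calls. Over all 16110 tested probes, linear calls in either direction also dropped with the step, from 7685 to 3092. FAS, a death receptor, fell by 1.95 on the log2 scale (SE 0.23) and was detected on 8 arrays, the latest at 27 h, so that it was at least 2.57-fold lower at 45 h than at 0 h. A second FAS probe was detected on 2 arrays and was below the filter. The call of FAS was lost with the step (-1.22, limma, adjusted p = 0.158). SFN, the 14-3-3 sigma protein of the G2 checkpoint, fell by 1.14 on the log2 scale (SE 0.10). EPHA2, a receptor tyrosine kinase named after its values were seen, was the 1 gene of the pathway lists with a 0 h term (2.44 ± 0.30, limma, adjusted p = 0.00034).

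**Figure D4:**
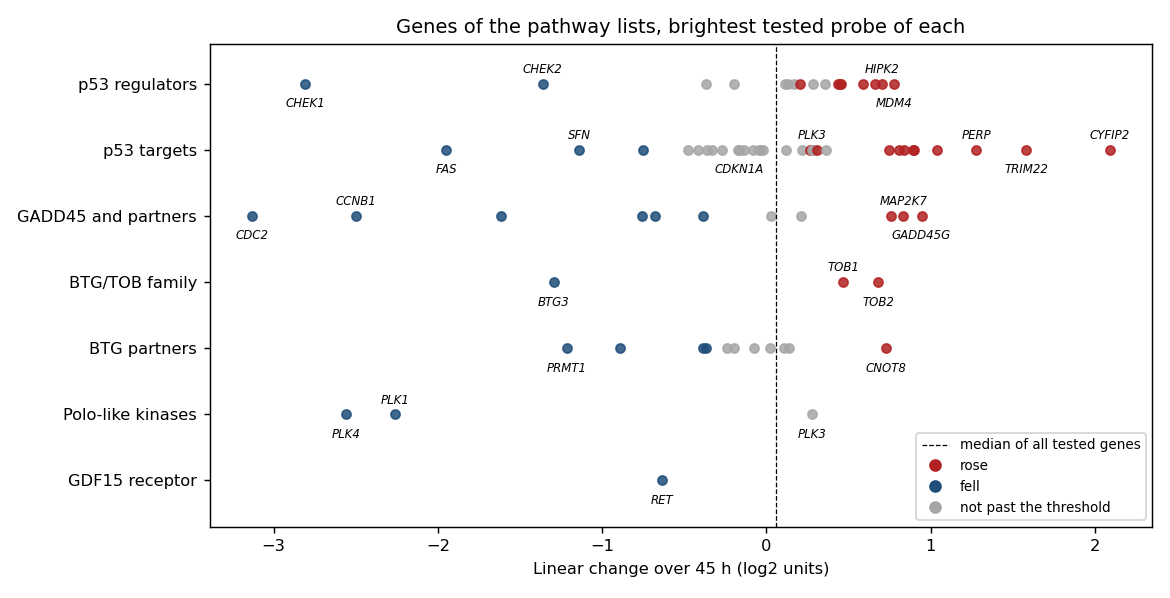
Linear change over 45 h in log2 units (x axis) for each tested gene of the 7 pathway lists (y axis), with red for genes that rose, blue for those that fell and grey for those that did not pass. The dashed line is the median of all tested genes, and genes on both sides of it are present in the p53, GADD45 and BTG lists while PLK1, PLK4, CDC2, CCNB1 and CHEK1 lie furthest to the left.

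Among the relatives and partners of the GADD45 members, 3 of 11 rose and 6 fell, with a median of -0.38. GADD45G, the remaining family member, rose by 0.94 ± 0.16 (limma, adjusted p = 6.38e-05), between values of 9.15 on the first and 10.72 on the last array. Its call was lost with the step (0.29, limma, adjusted p = 0.64), whereas that of GADD45B was not. MAP2K7, a kinase of the JNK pathway, rose by 0.83 ± 0.11. The cell cycle partners moved the other way. CDC2 (CDK1) fell by 3.13 on the log2 scale (SE 0.20) and CCNB1 fell by 2.50 on that scale (SE 0.25), and both dropped most between 33 and 36 h, at the border of 2 sets.

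Of the 3 tested relatives of BTG1 and BTG2, TOB2 rose by 0.68 ± 0.17, TOB1 rose by 0.47 ± 0.15 and BTG3 fell by 1.29 on the log2 scale (SE 0.18). The rise of TOB1 rested on the last array, where its log2 value was 12.51 against 11.73 at 42 h, and was 0.17 without it (limma, adjusted p = 0.383). BTG3 fell early, from 10.26 at 0 h to 8.81 at 12 h. Of 11 deadenylase and methyltransferase partners of the BTG proteins, 1 rose, 4 fell and 6 did not pass. CNOT8, a catalytic subunit of CCR4-NOT, rose by 0.73 ± 0.10, and PRMT1, the arginine methyltransferase that binds BTG1 and BTG2, fell by 1.21 on the log2 scale (SE 0.10). A second PRMT1 probe fell by 1.32 on the log2 scale, and a dimmer one changed by 0.18 (adjusted p = 0.35). CNOT3, a scaffold subunit, fell by 0.89 on the log2 scale (SE 0.22), which rested largely on the last array (7.32 against 9.07 at 42 h). The change was -0.33 without that array and still passed (limma, adjusted p = 0.0429). The call was lost with array weights (-0.43, limma, adjusted p = 0.0688) and with the step (adjusted p = 0.535).

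Among the relatives of PLK2, the mitotic kinase PLK1 fell by 2.26 on the log2 scale (SE 0.21) and PLK4, the kinase that starts centriole duplication, by 2.56 (SE 0.20). PLK3, another stress-responsive Polo-like kinase, had a change of 0.28 ± 0.38 (limma, adjusted p = 0.58) and was detected on 12 arrays. RET, the signalling partner of the GDF15 receptor, was dim and fell by 0.63 on the log2 scale (SE 0.22, limma, adjusted p = 0.0244), with a second probe at -0.66. The course of the first probe was curved (departure from a straight line, adjusted p = 0.0129), and it ended at 7.15 after a start at 7.13. For the second probe neither such a departure (limma, adjusted p = 0.792) nor the course as a whole (adjusted p = 0.0683) passed. Without the 45 h array the change of the first probe was -1.02. Its call was lost on leaving out any 1 of the arrays at 0, 3, 6, 9, 36 and 39 h, where the change was between -0.59 and -0.50.

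**Figure D5:**
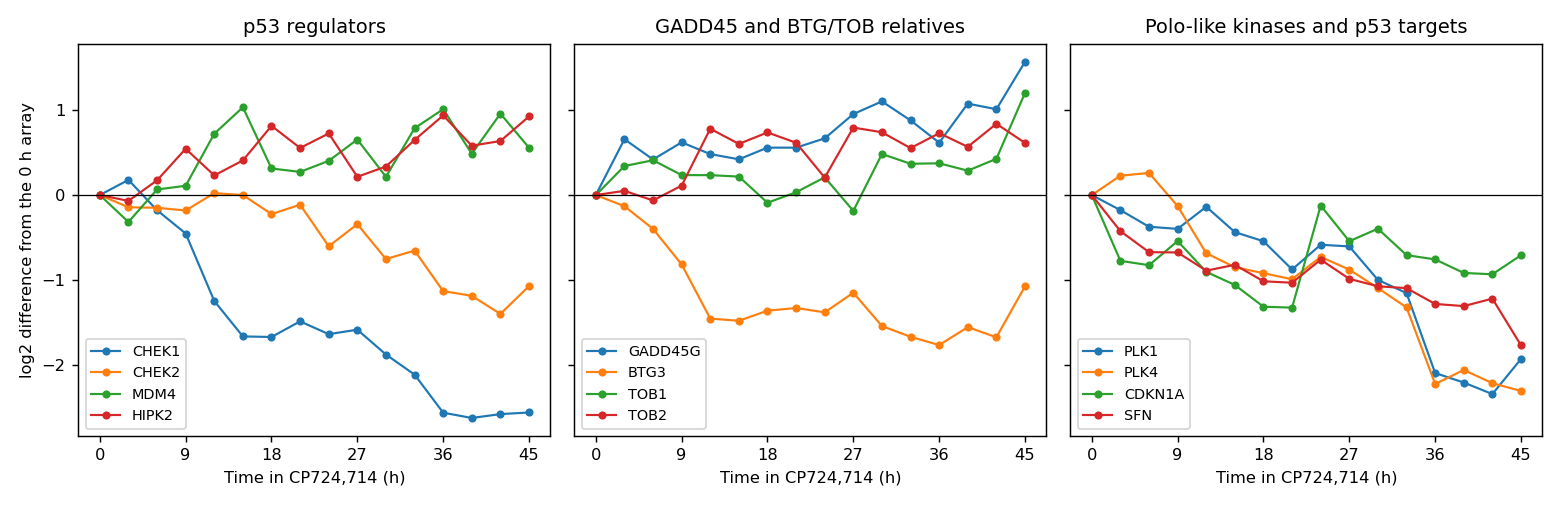
Difference in log2 signal from the single 0 h array (y axis) against hours in CP724,714 (x axis) for 12 genes of the lists, 1 array per point and no error bars. CHEK2 lies at -1.07 at 45 h, GADD45G ends 1.57 above its start, BTG3 falls before 12 h and then lies between -1.77 and -1.07, PLK1 and PLK4 drop at 36 h, and CDKN1A steps up between 21 and 24 h.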

How the data were processed

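SUM225 cultures were sampled at 16 time points, 1 array each, and grouped by the time in the labels. The deposited table gives a linear signal intensity per probe and array, which the authors had left without background subtraction and without normalization, and a deposited detection p-value. The study's methods describe quantile normalization as a later step. The study's methods name the Illumina human Ref8v2 array for its time courses. The scanning software was not given in the sources used here. All columns of per-sample values were used. Signals were processed with neqc of limma 3.58.1 in R 4.3.3 (normexp with negative controls inferred from the detection p-values, offset 16, quantile normalization, log2). The offset reduces fold changes of dim probes. The filter for testing was detection (p under 0.05) on 3 arrays or more. Fits used lmFit and eBayes with an intensity trend, on an orthogonal cubic polynomial in hours (F-test of 3 coefficients, F-test of those above the first order, first-order coefficient, and a term for the 0 h array). All p-values are two-sided, with Benjamini-Hochberg adjustment over every tested probe and a threshold of 0.05. With 1 array per time point, the p-values measure deviations from a smooth course, which may be technical, and precision is limited by the number of arrays. The fit was tested on simulated data.

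The members and gene lists were chosen with earlier results of these data known, and 2 listed genes are not reported here and were left out of the lists and their counts. Genes named were the members, MDM4, CDKN1A and the relatives of the members, the 2 genes of each list with the largest rise and the largest fall among those past the threshold, and the 3 most like each member. XPC, DDB2, PERP and EPHA2 were named after their values were seen. Bounds for a probe not detected at 45 h were taken against that array's dimmest detected probe. Alternatives covered background, offset, normalization, filter, array sets, array weights, course shape, reference and each array left out. Plots used matplotlib 3.10.9 (Python 3.11.15).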

Additional observations from a re-analysis of the deposited data

How the results depend on the processing

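The linear calls of GDF15, TP53INP1 and GADD45B and their directions held under each change of background, offset, normalization, filter and array weights, with a straight line, and without any 1 array (-2.13 to -1.93, 1.05 to 1.61 and 1.48 to 1.64). BTG1 held as well (0.49 to 0.90), except with a step between 21 and 24 h (0.71, adjusted p = 0.0803). With a factor for the 12 h sets, 0 of 7 members passed in limma and 4 had an unadjusted p under 0.05, over sets that span only 9 h. Of all 16110 tested probes, 145 passed with this factor, against 7685 in the main fit. The number of members with a 0 h term, 1, was 2 with median scaling, 0 with cyclic loess (3 at an unadjusted p under 0.05), 2 with array weights, and 1 to 2 with an array left out. With array weights 5 members had a linear trend, GADD45A being added. GDF15 was -3.42 with the step. Members with a linear trend were 4 to 5, with a time-dependent course 5 to 6 and departing from a straight line 2 to 3 with an array left out. No paired analysis was possible because time points hold single arrays.

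Estimates that had not passed turned sign as follows. With the step, BTG2 was -0.84, GADD45A -0.50 and PLK2 0.78, and TOB1, which had passed, was -0.0065. With the 12 h set, GADD45A was -0.74, and MDM4 and RET, which had passed, were -0.58 and 1.82. The 0 h term of GADD45B was -0.0056 with cyclic loess and that of GADD45A -0.090 with array weights. Leaving out an array gave -0.21 to 0.12 for CDKN1A, and 0 h terms of -0.27 to 0.44 for GADD45A, -1.33 to 0.070 for GDF15 and -0.068 to 0.18 for GADD45B. Without background correction the changes of the dim probes of FAS (-0.73), MDM4 (0.26) and RET (-0.24) were smaller and still passed. The log2 difference at 45 h also depended on its reference. Against the mean of 0 and 3 h it was 1.82 for TP53INP1, 0.89 for BTG1, -0.81 for PLK2 and 0.06 for GADD45A, against 2.29, 1.31, -1.35 and -0.31 from 0 h alone. Against the mean of the 16 arrays it was 0.49, 0.18, -0.61 and 0.10, with 0.70 for GADD45B and -0.81 for GDF15. The causes were not tested.

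The counts of the gene lists moved most. Of 77 tested list genes, 25 rose and 19 fell, against 5 and 12 with the step and 1 (TRIM22) and 1 (SFN) with the 12 h set, where 9 and 16 had an unadjusted p under 0.05. Linear calls dropped across the array as well. Of 16110 tested probes, 7685 had one in the main fit, 3092 with the step and 145 with the 12 h set. With the step, the p53 regulators had 0 that rose, the p53 targets 2, the GADD45 list 1 (and 3 that fell), the BTG/TOB family 1, the BTG partners 1 that fell and the GDF15 receptor 0. With the 12 h set, the p53 regulators had 0 that rose and 0 that fell, the p53 targets 1 and 1, and the GADD45 list, the BTG/TOB family, the BTG partners, the Polo-like kinases and the GDF15 receptor 0. With array weights 5 p53 targets fell and 1 BTG/TOB gene rose, with a straight line 1 BTG/TOB gene rose and RET no longer passed (0), and RET was not tested when detection on 16 arrays was required (0). With an array left out, the p53 targets had 2 to 5 that fell (5 without 9 h), the GADD45 list 3 to 6 (3 without 0 h), the BTG/TOB family 1 to 2 that rose (1 without 45 h) and the GDF15 receptor 0 to 1.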
